A study of Mus musculus with 7 samples.

Results

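Expression of 7 transcription factor genes of the interneuron lineage (Dlx1, Dlx2, Dlx5, Dlx6, Sp8, Sp9 and Gsx2) was followed from neural stem cells (NSCs) to neuroblasts of the mouse ventricular-subventricular zone (V-SVZ), the stem cell niche along the lateral ventricle. The 7 genes were chosen by symbol from the 32285 genes counted in single-cell RNA sequencing of the lateral wall, and each symbol matched 1 gene identifier. Cells with 500 to 7000 detected genes and at most 10% mitochondrial counts were kept, which left 43346 cells in 7 libraries. Of these, 17969 fell into 5 stages defined by marker genes that include none of the 7: 5047 quiescent NSCs, 1047 activated NSCs, 2128 transit amplifying precursors (TAPs), 2212 dividing neuroblasts and 7535 postmitotic neuroblasts. Stage names stand for these gates on markers, and 5.27% to 21.0% of the cells of 2 neighbouring classes lay near the boundary between them.

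The 3 control libraries came from Prdm16 fl/fl mice without Cre. The 3 Prdm16 cKO libraries came from hGFAP-Cre; Prdm16 fl/fl mice, and the single Prdm16-Vcam1 DKO library from mice that carried hGFAP-Cre with floxed alleles of both Prdm16 and Vcam1. Floxed Prdm16 alleles were thus shared by every group. Mice were at postnatal days 31 to 33, and each library pooled the tissue of 2 to 3 mice of both sexes. The hGFAP-Cre transgene acts in radial glia of the embryo and is inherited by their progeny, so that NSCs, neuroblasts and glia derived from them all belong to the targeted lineage. How complete the deletion was in each library was not measured.

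Neuroblasts of the adult V-SVZ migrate to the olfactory bulb and become inhibitory interneurons. Quiescent NSCs are glia-like stem cells, which on activation give rise to TAPs, and TAPs give rise to neuroblasts. Gsx2 is a homeodomain factor of the dorsal lateral ganglionic eminence, the embryonic origin of olfactory bulb interneurons, and patterns the progenitors there. Dlx1 and Dlx2 are distal-less homeodomain factors that promote the GABAergic fate and the migration of interneurons. Dlx5 and Dlx6 are their homologues, transcribed from a second gene pair and activated in part by Dlx1 and Dlx2. Sp8 and Sp9 are zinc finger factors of the Sp family that are required for the differentiation of olfactory bulb interneurons.

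In GENCODE vM21 (GRCm38), Dlx1 (ENSMUSG00000041911) lay on the plus strand of chromosome 2 from 71528113 to 71533981, and Dlx2 (ENSMUSG00000023391) on the minus strand from 71543408 to 71546754, with 9426 bases between them. Sp9 (ENSMUSG00000068859) lay on the same chromosome from 73271925 to 73284706, 1725170 bases beyond Dlx2. Dlx6 (ENSMUSG00000029754, plus strand, 6863334 to 6868568) and Dlx5 (ENSMUSG00000029755, minus strand, 6877805 to 6882085) formed the pair on chromosome 6, 9236 bases apart. Sp8 (ENSMUSG00000048562) lay on chromosome 12 from 118846329 to 118852576 and Gsx2 (ENSMUSG00000035946) on chromosome 5 from 75075601 to 75077893, both on the plus strand. All 7 are protein-coding genes. An antisense RNA overlapped 1 gene of each Dlx pair: Dlx1 lay wholly within the span of Dlx1as (71516454 to 71537891) and Dlx6 wholly within that of Dlx6os1 (6820189 to 6871592). Whether counting used the strand is not given in the sources used here, and without strand the reads of each of these genes and its antisense partner cannot be told apart.

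RefSeq promoter sequences of GRCm38.p6, each a window of 300 bases that lies mostly upstream of a transcription start, matched 5 of the 7 genes, Dlx5 and Dlx6 being the others. Promoters of Dlx1, Dlx2, Sp9 and Gsx2 are shown because Dlx1, Dlx2 and Sp9 rose from NSCs to neuroblasts, at steps that differed, while Gsx2 fell in neuroblasts, and that of Dlx6os1 because its RNA followed Sp9 most closely over cell classes. They were searched on both strands for TAATTA, the core bound by homeodomain proteins, for CAGCTG, an E-box, and for GGGCGG, a GC box of the kind bound by Sp factors. Capitals mark every match, and no matches overlapped. The windows of Dlx1 and Dlx6os1 lay wholly inside the gene spans given above. They belong to starts within these genes and not to the outer ends of the spans. The Dlx1 window was chr2:71529195-71529494 (plus strand), the Dlx2 window chr2:71546705-71547004 (minus strand), the Sp9 window chr2:73271676-73271975 (plus strand), the Gsx2 window chr5:75075351-75075650 (plus strand) and the Dlx6os1 window chr6:6869484-6869783 (minus strand), each read 5′ to 3′ along its gene.
Dlx1: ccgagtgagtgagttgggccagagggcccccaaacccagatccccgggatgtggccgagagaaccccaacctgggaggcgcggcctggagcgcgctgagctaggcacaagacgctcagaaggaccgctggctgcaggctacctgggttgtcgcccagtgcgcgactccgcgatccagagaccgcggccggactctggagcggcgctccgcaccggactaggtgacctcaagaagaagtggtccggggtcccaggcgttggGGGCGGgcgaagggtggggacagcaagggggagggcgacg
Dlx2: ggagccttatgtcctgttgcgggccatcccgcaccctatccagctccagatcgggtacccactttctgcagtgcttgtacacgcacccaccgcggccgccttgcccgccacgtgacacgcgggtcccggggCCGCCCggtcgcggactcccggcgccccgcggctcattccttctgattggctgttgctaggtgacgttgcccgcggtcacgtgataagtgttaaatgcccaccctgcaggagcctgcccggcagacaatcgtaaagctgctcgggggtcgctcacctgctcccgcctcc
Sp9: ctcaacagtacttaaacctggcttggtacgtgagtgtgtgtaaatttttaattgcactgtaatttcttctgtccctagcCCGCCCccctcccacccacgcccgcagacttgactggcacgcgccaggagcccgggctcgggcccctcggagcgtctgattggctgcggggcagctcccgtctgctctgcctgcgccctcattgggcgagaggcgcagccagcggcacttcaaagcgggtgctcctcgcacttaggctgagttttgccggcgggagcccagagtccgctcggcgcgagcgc
Gsx2: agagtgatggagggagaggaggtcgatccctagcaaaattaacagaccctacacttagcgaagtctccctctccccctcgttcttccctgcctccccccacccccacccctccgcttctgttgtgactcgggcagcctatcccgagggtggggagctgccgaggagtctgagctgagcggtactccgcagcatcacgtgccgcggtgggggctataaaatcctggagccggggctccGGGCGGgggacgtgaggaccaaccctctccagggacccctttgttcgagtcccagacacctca
Dlx6os1: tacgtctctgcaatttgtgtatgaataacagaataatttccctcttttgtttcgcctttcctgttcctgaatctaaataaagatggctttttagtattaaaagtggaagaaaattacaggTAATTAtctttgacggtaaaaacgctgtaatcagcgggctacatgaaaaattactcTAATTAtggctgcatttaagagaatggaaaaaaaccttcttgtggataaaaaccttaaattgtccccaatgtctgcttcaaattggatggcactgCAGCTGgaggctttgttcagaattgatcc
Each of the 4 coding genes shown held 1 GC box in this window, as did 35.7% of 32851 promoter windows of the same length. None of the 4 held TAATTA or CAGCTG, which 5.29% and 16.3% of all windows held. The Dlx6os1 window held 2 TAATTA and 1 CAGCTG and no GC box, and a second window of that gene, not shown, held 1 TAATTA alone. Of the 3 windows of Sp8, also not shown, 1 held a GC box, 1 held TAATTA and 1 neither. The GC content of the Dlx6os1 window shown was 35.7%, against 63.0% to 69.3% in the 4 coding genes and a median of 52.7% over all windows. These matches are a description of the letters only.

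The libraries held 45758003 to 141353017 unique molecular identifiers (UMIs, each counting 1 captured mRNA molecule) and 1868 to 9502 kept cells. Values below are UMIs of a gene summed over the cells of 1 stage in 1 library, scaled to a common total as CPM. Because only the 3′ ends of mRNAs were counted, CPM is compared within a gene and not between genes. Libraries shared at most 1.48% of their barcodes, and no pair of libraries held the same counts. Values of 3 libraries of a genotype are listed in the order of their numbers 1, 2 and 3. Prdm16 itself had 72.9, 63.7 and 68.4 CPM in quiescent NSCs of the controls, 54.8, 45.2 and 43.7 CPM in those of the cKO and 58.8 CPM in those of the DKO, but 3′ tags need not lie in the deleted part and do not check the deletion. cKO library 1 stood apart from the other cKO libraries. Prm1, which encodes the sperm chromatin protein protamine 1, had a UMI in 25.3% of its quiescent NSCs, against 57.1% and 69.8% in cKO libraries 2 and 3, 35.0% in the DKO library and 0.0% in the controls, and 589 of its cells joined a cluster of control NSCs that held 9 and 4 cells of cKO libraries 2 and 3. Whether the Prm1 UMIs come from the Cre transgene was not tested. The DKO library had 617 cells in that cluster and 198 in a cluster rich in cKO NSCs, where cKO library 1 had 177. Mixed genotypes among the pooled mice and an uneven deletion cannot be told apart for cKO library 1 or the DKO library, so that their values and the cKO means may not stand for a full loss of Prdm16. Calls and group medians of the genotype comparison are therefore also given without cKO library 1.

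RNA free in the droplets can set a floor for these genes, but it was not measured here. Oligodendrocytes, a class outside the path from NSCs to neuroblasts, were taken as the reference. The paper counts them among the cells that radial glia produce, so they are not outside the targeted lineage. How much of their level is free RNA was not tested. Over the 7 libraries their level ran from 2.23 to 8.99 CPM for Dlx1 and from 7.78 to 17.6 CPM for Dlx2. It ran from 0.171 to 2.16 CPM for Dlx5, 0.297 to 2.01 for Dlx6 and 0.171 to 1.22 for Sp8. For Sp9 it ran from 0.343 to 6.51 CPM and for Gsx2 from 0.171 to 1.15 CPM. In quiescent NSCs the ranges of 6 of the 7 genes overlapped with these, and their levels there are read as background. Gsx2 was the exception, with 11 to 45.6 CPM in quiescent NSCs.

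The first question was in which order the 7 genes come on. Dlx1 and Dlx2 were low in quiescent NSCs, first rose in activated NSCs and rose most steeply into TAPs. Dlx5, Dlx6, Sp9 and Sp8 rose into TAPs and again into dividing neuroblasts, and Sp8 had its largest log2 step at the later of these. Gsx2 was present in quiescent NSCs, was higher in activated NSCs and TAPs and fell in neuroblasts. Each step between neighbouring stages was tested with edgeR on the sums of all 7 libraries with the library as a block, adjusted over 13591 genes, and 4 of the 7 genes were called higher from quiescent to activated NSCs, 6 from activated NSCs to TAPs, 6 from TAPs to dividing neuroblasts and 3 from dividing to postmitotic neuroblasts. Over all genes tested, 29.5%, 32.4%, 25.8% and 39.5% were called higher at these steps. Gsx2 was the 1 gene called lower at each of the last 2 steps, where 28.9% and 25.5% of all genes were called lower. With stages taken from Leiden clusters in place of gates, 0 of the 7 genes were called from TAPs to dividing neuroblasts, where the 1 cluster placed as TAPs held 1 and 7 cells of control libraries 1 and 2 and 17 of cKO library 1. The median log2 difference of the 7 genes was 1.11, 2.94, 1.79 and 0.18 at the 4 steps, beside medians of -0.03, -0.01, -0.02 and 0.15 over all genes.

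**Figure D1:**
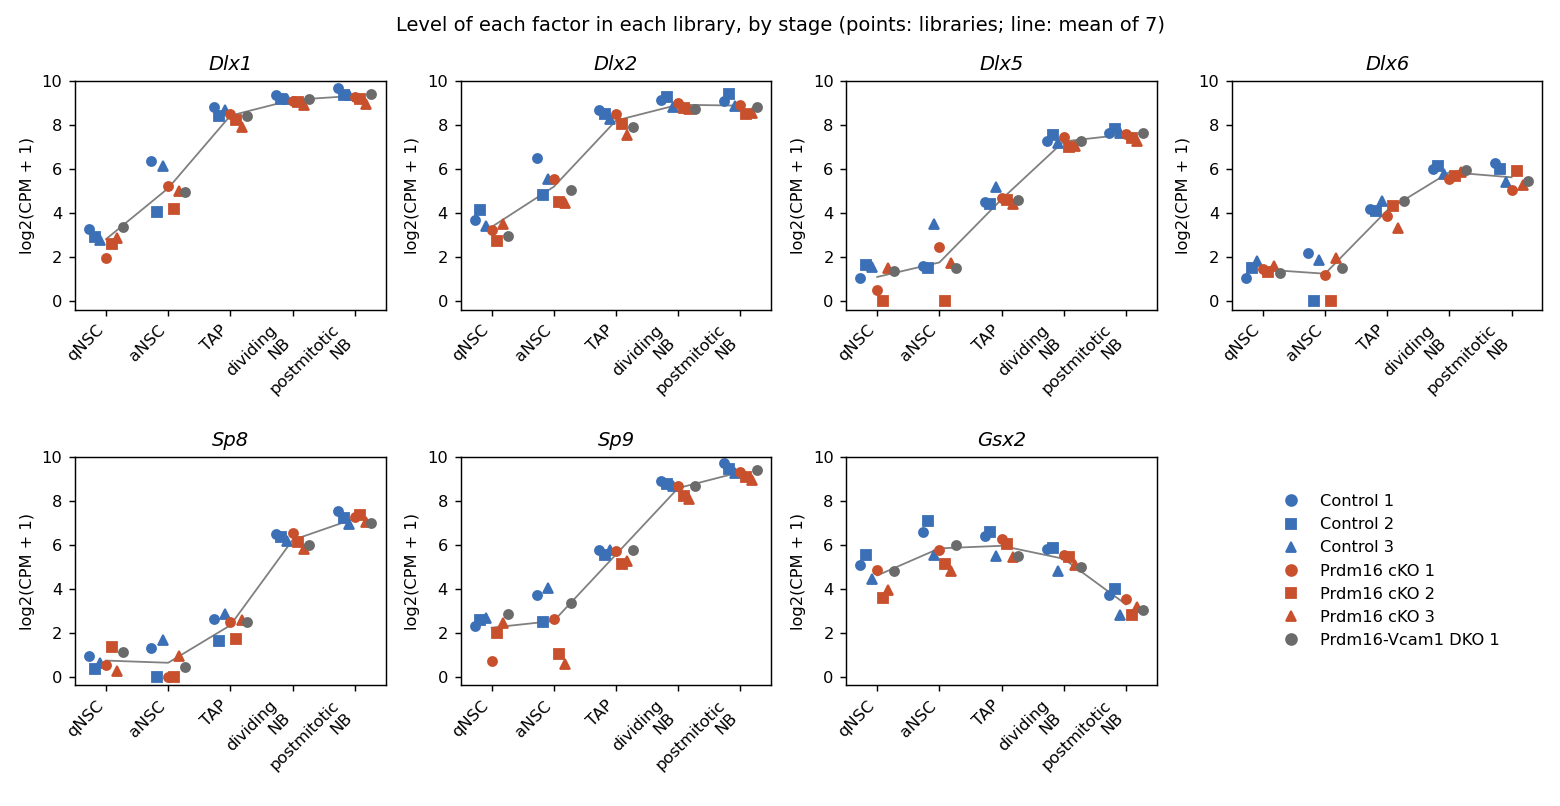
Level of each of the 7 genes in the 5 stages from quiescent NSC (qNSC) through activated NSC (aNSC) and TAP to dividing and postmitotic neuroblast (NB), on the scale of log2(CPM + 1). Points are libraries, with colour for the genotype, and the line joins the means of 7 libraries. Dlx1 rises from a median of 6.32 CPM in quiescent NSCs to 650 CPM in postmitotic neuroblasts, while Gsx2 peaks in activated NSCs and TAPs and drops to a median of 7.86 CPM.

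Dlx1 had a lowest, median and highest level of 2.81, 6.32 and 9.18 CPM in quiescent NSCs and of 15.3, 30.9 and 80.7 CPM in activated NSCs. It reached 239, 340 and 447 CPM in TAPs, 487, 573 and 666 CPM in dividing neuroblasts and 497, 650 and 813 CPM in postmitotic neuroblasts. The ranges of neighbouring stages did not overlap up to dividing neuroblasts, and those of the 2 neuroblast stages did. With edgeR the log2 difference was 2.54 ± 0.23 (SE, adjusted p = 3.43e-10) from quiescent to activated NSCs, 3.26 ± 0.17 (adjusted p = 2.25e-15) to TAPs and 0.78 ± 0.13 (adjusted p = 1.21e-05) to dividing neuroblasts, and the last step of 0.18 did not pass (adjusted p = 0.219). Dlx2, its neighbour, had a lowest, median and highest level of 5.52, 9.46 and 16.3 CPM in quiescent NSCs, 20.6, 31.6 and 89.6 CPM in activated NSCs and 188, 304 and 404 CPM in TAPs. Its level was 417, 447 and 626 CPM in dividing and 364, 460 and 684 CPM in postmitotic neuroblasts, so that the ranges of these 2 stages overlapped and those of all earlier neighbours did not. The edgeR log2 differences of Dlx2 were 1.92 ± 0.20 (adjusted p = 5.67e-09), 3.06 ± 0.15 (adjusted p = 1.69e-15) and 0.78 ± 0.12 (adjusted p = 4.7e-06), followed by a last step of -0.04 (adjusted p = 0.803). Both genes thus rose in the same 3 steps.

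Dlx5 was at 0 to 2.07 CPM in quiescent NSCs and 0 to 10.1 CPM in activated NSCs, with medians of 1.57 and 1.99 CPM. In cKO library 2 no Dlx5 UMI was counted in either NSC stage, which allows up to 1.51 and 3.04 CPM there. Its lowest, median and highest levels were 20.2, 22.8 and 35.4 CPM in TAPs, 126, 152 and 188 CPM in dividing neuroblasts and 156, 198 and 226 CPM in postmitotic neuroblasts. From TAPs to dividing neuroblasts the ranges stood far apart, and the edgeR log2 difference was 2.73 ± 0.13 (adjusted p = 9.7e-17), after 2.94 ± 0.27 (adjusted p = 9.76e-11) from activated NSCs to TAPs. The step from quiescent to activated NSCs (1.16 ± 0.44, adjusted p = 0.0248) and the step between neuroblast stages (0.32 ± 0.11, adjusted p = 0.0103) passed with edgeR, but the first had overlapping ranges and its call was lost with doublets left out (log2 difference 0.10) and with stricter gates (0.49), and also without control library 1, control library 3 or cKO library 1. The last step of Dlx5 was lost with stricter gates (0.05), a limit of 5% mitochondrial counts (0.21) and without control library 1 or cKO library 2, among others. Dlx6 followed a like course: 1.09 to 2.47 CPM in quiescent NSCs, 0 to 3.49 CPM in activated NSCs, and lowest, median and highest levels of 8.96, 17.4 and 22.2 CPM in TAPs, 45.9, 57.7 and 70.1 CPM in dividing neuroblasts and 32.3, 43.3 and 75.3 CPM in postmitotic neuroblasts. In NSCs it was thus at or near its oligodendrocyte range, which reached 2.01 CPM. Dlx6 rose into TAPs (3.27 ± 0.32, adjusted p = 2.13e-10) and dividing neuroblasts (1.79 ± 0.15, adjusted p = 1.01e-11) in the edgeR fit, and its last step of -0.23 did not pass (adjusted p = 0.117).

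Sp9 had medians of 4.46 and 5.12 CPM in quiescent and activated NSCs, and reached 15.4 CPM at most there, in activated NSCs of control library 3. It was at 34.2 to 53.7 CPM in TAPs with a median of 50.9, at 272 to 475 CPM in dividing neuroblasts with a median of 411, and at 494 to 830 CPM in postmitotic neuroblasts with a median of 635. The 3 later ranges did not overlap with each other. The edgeR log2 difference of Sp9 was 2.83 ± 0.23 (adjusted p = 3.14e-11) into TAPs, 3.11 ± 0.13 (adjusted p = 1.46e-16) into dividing neuroblasts and 0.73 ± 0.12 (adjusted p = 4.47e-06) into postmitotic neuroblasts. Sp8 came later still, with 0 to 2.2 CPM in the NSC stages and 2.04 to 6.23 CPM in TAPs with a median of 4.66. Its lowest, median and highest levels were 55.7, 71.1 and 92.3 CPM in dividing and 121, 147 and 187 CPM in postmitotic neuroblasts. With edgeR, Sp8 rose by a log2 difference of 4.06 ± 0.14 (adjusted p = 5.95e-21) from TAPs to dividing neuroblasts, the largest step of any of the 7 genes, and by 0.97 ± 0.10 (adjusted p = 2.02e-10) after that. Its earlier step into TAPs (2.57 ± 0.43, adjusted p = 4.66e-06) rests on 11 UMIs in activated NSCs over all libraries.

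Gsx2 was at a lowest, median and highest level of 11, 26.6 and 45.6 CPM in quiescent NSCs, 27.2, 53.8 and 133 CPM in activated NSCs and 42.2, 64.3 and 95.5 CPM in TAPs. It was at 27.3, 42.2 and 56.4 CPM in dividing and at 5.89, 7.86 and 14.7 CPM in postmitotic neuroblasts. The postmitotic range lay below that of every other stage except quiescent NSCs. The edgeR log2 difference of Gsx2 was 1.11 ± 0.14 (adjusted p = 3.95e-08) on activation, 0.20 ± 0.13 (adjusted p = 0.189) into TAPs, -0.58 ± 0.12 (adjusted p = 0.000233) into dividing neuroblasts and -2.14 ± 0.15 (adjusted p = 7.43e-14) into postmitotic neuroblasts. In parenchymal astrocytes, which share most glial markers with quiescent NSCs, it was at 5.64 to 9.26 CPM in all 7 libraries, below every quiescent NSC value.

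The order was finer when TAPs and neuroblasts were divided into 7 bins of rising neuroblast markers (Dcx, Stmn2, Tubb3, Sox11, Igfbpl1 and Cd24a), a scale that uses none of the 7 genes. Gsx2 was at 50% or more of its highest level already in the first bin in 7 of 7 libraries. Dlx2 first reached that share in bins 1 to 3, Dlx1 in bins 2 to 3, Dlx6 in bins 3 to 5, Dlx5 and Sp9 in bins 4 to 5, and Sp8 in bins 5 to 6. Dlx1 and Dlx2 thus overlapped with each other in their first bins, and Dlx5 and Sp9 had the same range. From bin 1 to bin 7 the mean level went from 109 ± 50.8 to 683 ± 76.3 CPM (SD, n = 7) for Dlx1, from 3.15 ± 1.94 to 648 ± 99.7 CPM for Sp9 and from 0.48 ± 0.628 to 167 ± 21.9 CPM for Sp8. Over the same bins Gsx2 went down from 67.5 ± 23.3 to 10.7 ± 6.64 CPM. Dlx6 had its highest mean, 55.3 ± 8.36 CPM, in bin 5 rather than at the end. The first bin held as few as 4 cells, in cKO library 2, so that Dlx2 at bin 1 in that library is thinly based.

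**Figure D2:**
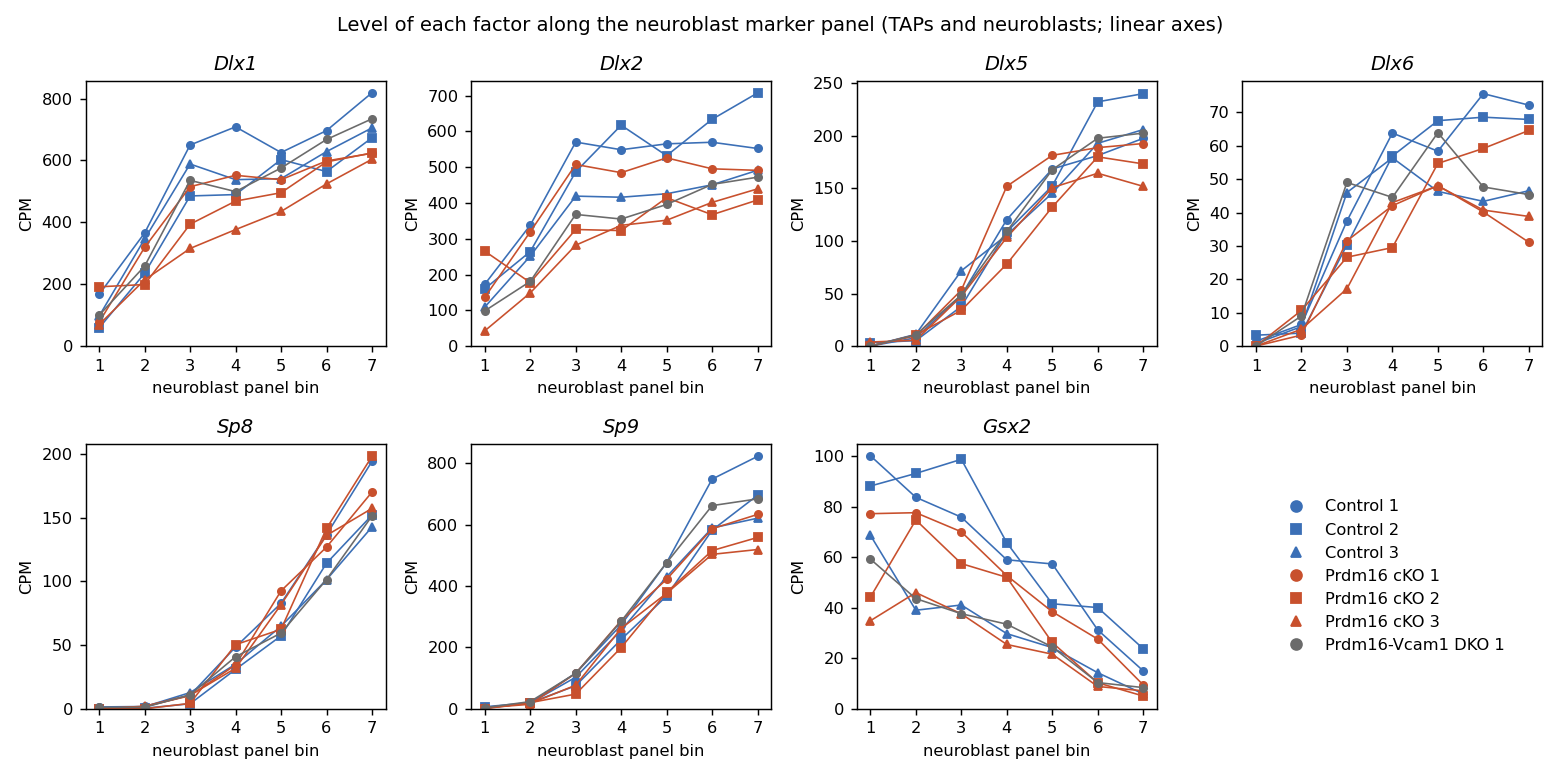
Level of each gene in TAPs and neuroblasts along 7 bins of the neuroblast marker score, in CPM on a linear axis that differs between genes. Lines are libraries, with colour for the genotype and symbol for the library. Gsx2 is at or above 50% of its highest level in the first bin and falls by the last. Dlx1 and Dlx2 reach 50% of theirs by bin 3, and Sp8 reaches it in bin 5 or 6.

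Outside the lineage, mature neurons differed from the neuroblasts in which of the 7 genes they held. Dlx6 was at 72.9, 80.1 and 88.3 CPM in neurons (lowest, median and highest of 7 libraries), above its postmitotic neuroblast level of the same library in 7 of 7 libraries. Dlx5 was at 38.2 to 56.0 CPM in neurons and Sp9 at 36.7 to 92.5 CPM, both below every postmitotic neuroblast value. Dlx1 (0 to 7.59 CPM), Dlx2 (0.749 to 13.1 CPM), Sp8 (0 to 3.76 CPM) and Gsx2 (0 to 1.91 CPM) were near their oligodendrocyte levels in neurons. Ependymal cells held Dlx2 at 12 to 25.0 CPM, while the highest level of any of the 7 genes in endothelial, mural or microglial cells was 21.1 CPM, for Dlx1 in microglia. Neurons here are those that came with the dissected wall and need not be olfactory bulb interneurons. Their gate includes Ppp1r1b, Pde10a, Penk and Tac1, which had a UMI in 92.8%, 97.2%, 70.4% and 51.9% of them. Whether any difference from neuroblasts comes with maturation was not tested.

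**Figure D3:**
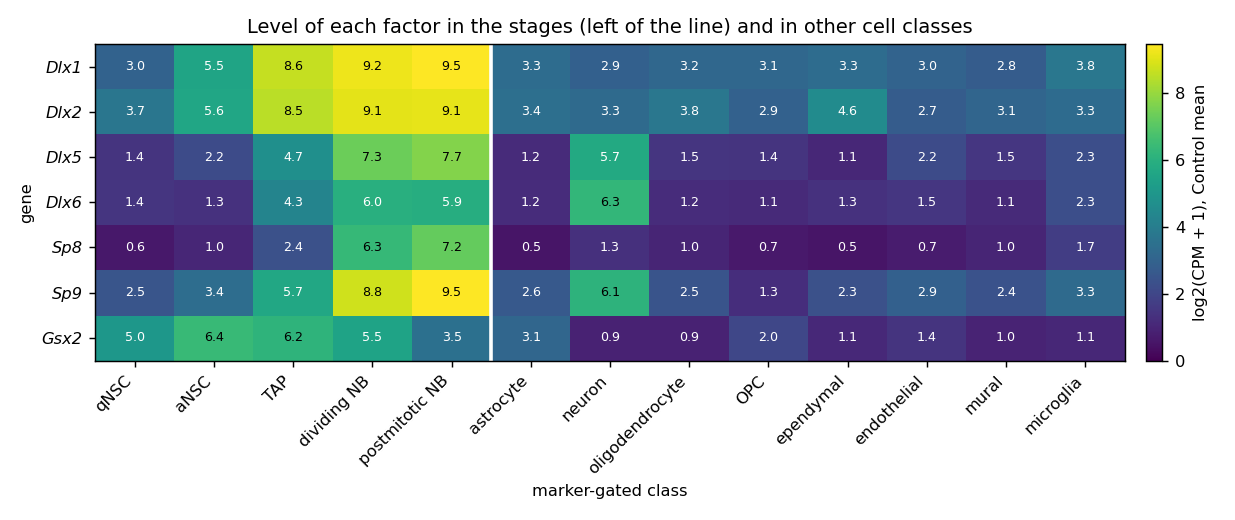
Heat map of the control mean level of each of the 7 genes in 13 cell classes (log2 scale of CPM + 1, n = 3 libraries). The number in each field is the plotted value, and colours are to be compared along a row. Among classes outside the 5 stages, neurons hold Dlx6, Dlx5 and Sp9 but not Dlx1, Dlx2, Sp8 or Gsx2.

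Over the control means of these 13 classes, the pairs with the most similar log2 profiles were Dlx1 and Dlx2 (Pearson r = 0.983), Dlx5 and Sp9 (0.983) and Dlx5 and Dlx6 (0.968). Gsx2 correlated with the other 6 at 0.245 to 0.673. Among all other genes with a log2 CPM of at least 4 in some class, the antisense RNA Dlx6os1 was nearest to Sp9 (r = 0.99) and Smim18 nearest to Dlx6 (0.974), followed by Gad2 (0.943), which encodes a glutamate decarboxylase that makes GABA. The gene nearest to Dlx2 was Hmgn2 (0.953), a nucleosome-binding protein. Nearest to Sp8 was D930028M14Rik (0.972) and nearest to Gsx2 was Gm29260 (0.958). The nearest genes to Dlx1 and Dlx5, Igfbpl1 and Tubb3 (both 0.975), are markers that the neuroblast gate uses. Classes share libraries and depth, and these correlations over 13 points are a description without a test.

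Whether the same cells held several of the factors was read after thinning every cell to 2000 UMIs, which 1997 of 2128 TAPs and 7114 of 7535 postmitotic neuroblasts reached. In TAPs, Dlx2 had a UMI in 55.7% of cells with Dlx1 and in 20.1% of cells without it. The same split ran from 46.6% to 66.1% against 11.6% to 26.6% over the 7 libraries, and the 2 ranges did not overlap. Dlx5 and Sp9 occurred together in 27 TAPs, 4.13 times the number that independence would give, with 2 to 7 such cells and ratios of 3.04 to 15.1 per library. Dlx5 and Dlx6 occurred together in 12 TAPs, 0 to 4 per library, too few to read an order from, with ratios of 0.0 to 11.3. Gsx2 was found in 12.6% of TAPs with Dlx1 and in 10.1% of those without. In postmitotic neuroblasts ratios of this kind lay near 1, at 1.05 for Dlx1 with Dlx2, 1.01 for Sp8 with Sp9 and 1.16 for Dlx5 with Dlx6. The ratio cannot exceed 1 divided by the larger of the 2 shares. Genes found in most cells therefore stay near 1, and these ratios are not compared with those of TAPs. A missing UMI at this depth does not show a missing mRNA. In postmitotic neuroblasts 52.8% to 66.1% of control cells and 41.8% to 52.8% of cKO cells per library held 3 or more of the 7 genes, and in oligodendrocytes at most 0.233% did.

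Other genes of the lineage were followed over the same steps. Of 25 other factors of interneuron development, 20 were tested over the steps, and edgeR called 10, 9, 13 and 11 higher and 0, 2, 3 and 4 lower at the 4 steps in turn, with medians of 0.23, 0.36, 0.65 and 0.45. Over all genes, 31.7%, 31.7%, 28.9% and 25.5% were called lower at these steps. Gsx1, the homologue of Gsx2, rose on activation by a log2 difference of 5.39 ± 0.28 (adjusted p = 1.84e-18) and fell into dividing neuroblasts (-2.08 ± 0.14, adjusted p = 7.92e-15) and postmitotic neuroblasts (-2.85 ± 0.21, adjusted p = 5.15e-14), so that it fell at the same 2 steps as Gsx2. Etv1, an ETS factor of olfactory bulb interneurons, rose at the first 3 steps, by 0.93, 0.76 and 2.40. Meis2 (1.57 ± 0.08), Pbx3 (2.36 ± 0.16) and Tshz1 (1.64 ± 0.12), homeodomain and zinc finger factors of maturing interneurons, rose in the last step. Of 18 genes of the GABAergic phenotype and migration, 17 were tested and 3, 5, 12 and 12 were called higher, and 3, 4, 2 and 2 lower, with medians of -0.07, -0.12, 2.12 and 1.05. Over all genes tested, the shares called higher were 29.5%, 32.4%, 25.8% and 39.5%, as above. Gad2 rose into TAPs (1.3 ± 0.29), Dlx1as rose into TAPs (4.04 ± 0.36, edgeR adjusted p = 2.19e-12) from 7 UMIs in activated NSCs over all libraries, so that the size of this step is loosely set, and Dlx6os1 rose at all 4 steps (0.83, 2.58, 3.62 and 0.94). Robo2, a receptor of migrating neurons, rose into dividing neuroblasts (4.01 ± 0.16), and Prokr2 (5.20 ± 0.20) and Erbb4 (2.39 ± 0.11), receptors with known roles in neuroblast migration, rose into postmitotic neuroblasts. Ackr3, a chemokine receptor, and Reln, a secreted glycoprotein, fell into dividing neuroblasts.

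The second question was whether loss of Prdm16 changed these genes. With edgeR on 3 cKO against 3 control libraries, 0 of the 7 genes passed in any stage. In activated NSCs this count depended on the fit. Gsx2 passed there with the replicate block (-1.04, edgeR adjusted p = 0.0236), although the libraries were not shown to be paired, and Dlx2 (-0.83, adjusted p = 0.0434), Sp9 (-2.27, adjusted p = 0.00211) and Gsx2 (-1.14, adjusted p = 3.69e-05) passed with edgeR without the filter on low counts. Of 12262 genes in activated NSCs, the replicate block called 186 higher and 32 lower, against 8 and 0 without the block. Leaving out the filter gave 270 higher and 81 lower of 19358 genes. There were 6 tested in quiescent NSCs, 5 in activated NSCs and 7 in each later stage, since Sp8 in both NSC stages and Dlx6 in activated NSCs were too low. Over all genes, 0.0214%, 0.0652%, 0.0%, 0.00763% and 0.203% were called in either direction in quiescent NSCs, activated NSCs, TAPs, dividing and postmitotic neuroblasts. At an unadjusted p under 0.05, edgeR gave 2 of the 5 genes tested in activated NSCs and 0 in the other stages, beside 8.29% of all genes in activated NSCs and 13.1%, 6.41%, 5.38% and 9.86% in the other stages in turn. DESeq2 called 0 in every stage, with 1 at that unadjusted level in quiescent NSCs, 3 in activated NSCs and 1 in postmitotic neuroblasts, where 10.9%, 5.5% and 7.73% of all genes were at that level. The fitted log2 difference between cKO and control was below 0 for 5 of 6, 5 of 5, 7 of 7, 7 of 7 and 6 of 7 genes, with medians of -0.60, -0.94, -0.20, -0.12 and -0.29, beside 48.0% to 52.0% of all genes below 0 and medians of -0.01 to 0.01. In quiescent NSCs only Gsx2 lay above its oligodendrocyte range, and in activated NSCs Dlx5 and Sp9 had 46 and 99 UMIs over all libraries. The medians of these 2 stages thus rest in part on levels near background. Without cKO library 1 the medians were -0.26, -1.44, -0.37, -0.23 and -0.35, and edgeR called 1 of the 7 genes in quiescent NSCs, 1 in activated NSCs and 0 in the later stages. The 7 genes are not independent of each other and share the same libraries. In quiescent NSCs, activated NSCs and TAPs the CPM of the 2 genotypes overlapped for each of the 7 genes, whereas 9.6%, 7.98% and 7.49% of all genes there had all cKO values below all control values.

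**Figure D4:**
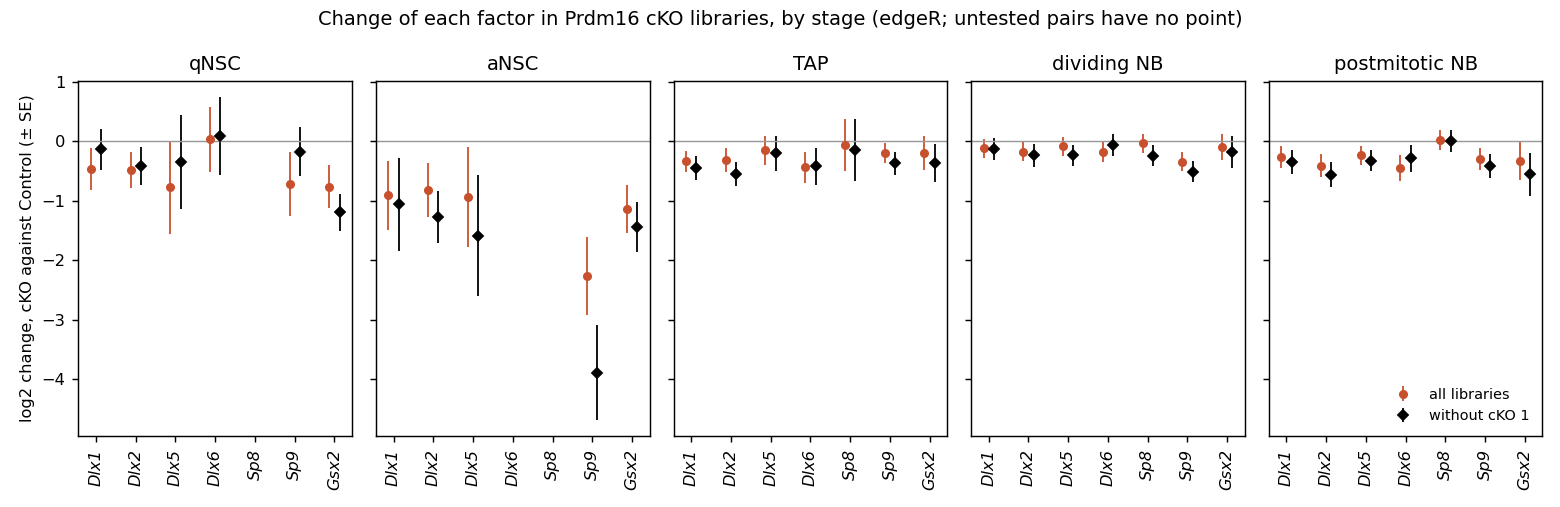
Fitted log2 change of each gene in Prdm16 cKO against control libraries in each stage, with bars of 1 SE, for all libraries and without cKO library 1. Most points lie below 0, none of the values with all libraries passes the adjusted threshold, and Gsx2 in quiescent NSCs (-1.19) and Sp9 in activated NSCs (-3.89) pass without cKO library 1.

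Gsx2 in quiescent NSCs was at 33.1, 45.6 and 20.5 CPM in the controls, against 27.4, 11 and 14.3 CPM in the cKO, with 26.6 CPM in the DKO library. cKO library 1 lay among the controls, and cKO libraries 2 and 3 below all of them. The 3 clusters placed as quiescent NSCs, counted as whole clusters and not by the gate, differed in make-up. One had 986, 382 and 1158 control and 589, 9 and 4 cKO cells per library, another 358, 190 and 472 against 78, 154 and 898, and the third 5, 4 and 11 against 177, 227 and 671. The part of this in the Gsx2 values was not tested. The edgeR log2 difference of Gsx2 was -0.76 ± 0.36 (adjusted p = 0.424) with all libraries and -1.19 ± 0.31 (adjusted p = 0.0217) without cKO library 1, under which 5.08% of all genes were called lower. In activated NSCs Gsx2 was at 94.1, 133 and 44.9 CPM in the controls, 53.8, 33.5 and 27.2 CPM in the cKO libraries and 62.0 CPM in the DKO library, and the groups overlapped through cKO library 1 and control library 3. The median astroglial marker score of activated NSCs was 1.63, 1.64 and 1.61 in the controls, 1.62, 1.81 and 1.98 in the cKO and 1.69 in the DKO library, so that cKO libraries 2 and 3, which had the lowest Gsx2 and Sp9 levels, also had the highest scores, and the part of this in either gene was not tested. Its edgeR log2 difference there was -1.14 ± 0.40 (adjusted p = 0.461), and -1.44 ± 0.42 (adjusted p = 0.151) without cKO library 1. After thinning, 14.1% ± 4.96 of control and 6.92% ± 1.52 of cKO activated NSCs held Gsx2 (SD, n = 3 each), with no overlap (exact permutation test over libraries, two-sided p = 0.1, the smallest that 3 against 3 can give, and 0.467 after adjustment over 35 shares). At 1000 UMIs the Gsx2 shares were 9.61% ± 4.72 and 3.27% ± 1.32 and overlapped (exact permutation p = 0.2).

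Sp9 in activated NSCs was at 12, 4.51 and 15.4 CPM in the controls, at 5.12, 1.01 and 0.469 CPM in the cKO and 9.18 CPM in the DKO library. cKO libraries 2 and 3 lay below the controls. The oligodendrocyte range of Sp9, 0.343 to 6.51 CPM, also took in control library 2 and cKO library 1. Sp9 reached 11.8 CPM in endothelial and 14.6 CPM in microglial cells, so that control libraries 1 and 3 are not far from levels outside the lineage either. Oligodendrocytes themselves held Sp9 at 4.54 ± 0.933 CPM in control and 2.11 ± 1.53 CPM in cKO libraries (SD, n = 3 each) without overlap, so that this reference level was lower in cKO libraries too. Sp9 was also lower without overlap in endothelial cells (7.22 and 1.87 CPM) and astrocytes (5.18 and 2.32 CPM). The groups overlapped in the remaining classes outside the 5 stages, with a higher cKO mean in oligodendrocyte precursors (1.79 and 3.92 CPM). Whether free RNA of Sp9 differed between genotypes was not measured. The edgeR log2 difference of Sp9 was -2.27 ± 0.66 (adjusted p = 0.221), and -3.89 ± 0.79 (adjusted p = 0.0051) without cKO library 1, where 0.974% of all genes were called lower. The 3 controls held 24, 5 and 35 Sp9 UMIs there, cKO library 1 held 8 and cKO libraries 2 and 3 held 1 each, so that the call without cKO library 1 rests on a single UMI in each remaining cKO library. Of activated NSCs, 6.19%, 0.0% and 7.18% were called doublets in the controls, against 4.47%, 0.0% and 0.621% in the cKO libraries and 1.08% in the DKO library, and with doublets left out the log2 difference of Sp9 was -2.59 ± 0.84 (edgeR adjusted p = 0.288). In the test of whether the change differs between neighbouring stages, edgeR called 0 of the 7 genes with all libraries, the smallest p being that of Gsx2 between activated NSCs and TAPs (difference of 0.86 ± 0.20, adjusted p = 0.253). Without cKO library 1, Sp9 passed between quiescent and activated NSCs (-3.84, adjusted p = 0.00692) and between activated NSCs and TAPs (3.59, adjusted p = 0.0107), and Gsx2 between activated NSCs and TAPs (0.96, adjusted p = 0.033). Of 13636 genes, 206 were then called higher and 109 lower between quiescent and activated NSCs, and 33 and 69 between activated NSCs and TAPs. These Sp9 differences rest on the same single UMI in activated NSCs of each of cKO libraries 2 and 3.

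In TAPs, Dlx1 was at 447, 340 and 416 CPM in the controls, against 360, 303 and 239 CPM in the cKO and 338 CPM in the DKO library (edgeR log2 difference -0.34 ± 0.17, adjusted p = 0.819). Dlx2 was at 404, 361 and 304 CPM against 365, 260 and 188 CPM, with 237 CPM in the DKO library. In both genes cKO library 1 lay within the control range and cKO libraries 2 and 3 below it. In dividing neuroblasts Sp9 was at 475, 431 and 411 CPM in the controls, 408, 298 and 272 CPM in the cKO libraries and 412 CPM in the DKO library (edgeR log2 difference -0.34 ± 0.17, adjusted p = 0.895). Dlx1 was at 666, 577 and 573 CPM against 546, 536 and 487 CPM there, with 586 CPM in the DKO library. For these 2 genes all cKO values were lower than all control values (exact permutation p = 0.1), as was true of 8.11% of all genes in dividing neuroblasts.

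For postmitotic neuroblasts, the stage with the most cells, 4 clusters were placed as this stage. Counted as whole clusters and not by the gate, all 4 held cells of every library, in shares that differed. The largest had 684, 252 and 620 cells of control libraries 1 to 3 and 413, 158 and 467 of cKO libraries 1 to 3. The next had 685, 364 and 650 against 702, 56 and 145, the third 277, 28 and 191 against 64, 55 and 310, and the fourth 29, 14 and 53 against 77, 119 and 301. The part of this in the values below was not tested. Dlx1 was at 813, 650 and 667 CPM in the controls, at 626, 582 and 497 CPM in the cKO and 689 CPM in the DKO library. Dlx5 was at 198, 226 and 200 CPM in the controls, 191, 166 and 156 CPM in the cKO libraries and 199 CPM in the DKO library. These were the 2 of the 7 genes whose groups did not overlap (exact permutation p = 0.1), as was true of 7.5% of all genes. Dlx2 was at 547, 684 and 460 CPM against 486, 364 and 375 CPM, with 448 CPM in the DKO library. Its edgeR log2 difference was -0.41 ± 0.20 (adjusted p = 0.511), and -0.56 ± 0.21 (adjusted p = 0.208) without cKO library 1. Sp9 was at 830, 685 and 609 CPM against 635, 534 and 494 CPM, and Dlx6 at 75.3, 62.4 and 42.1 CPM against 32.3, 58.6 and 37.2 CPM, both with overlap. Sp8 gave no such order, with 187, 147 and 121 CPM in the controls, 151, 163 and 129 CPM in the cKO libraries and a log2 difference of 0.02 ± 0.16 (edgeR adjusted p = 0.97). Lower cKO levels without overlap were not limited to neuroblasts. In neurons they were found for Dlx1, Dlx2 and Dlx5, the last at means of 52.3 ± 3.27 and 39.6 ± 2.04 CPM (SD, n = 3 each). In oligodendrocytes they were found for Dlx1, Dlx2, Dlx5 (1.77 and 0.707 CPM), Sp8 and Sp9. The other genes overlapped there, and the share of all genes was not computed for these classes.

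A level summed over a stage does not tell fewer cells with a gene from less mRNA per cell, and neither do shares of cells with a UMI at this depth, since a share falls when the level per cell falls. The shares after thinning are therefore another view of the same levels. Of postmitotic neuroblasts, 73.2% ± 3.50 held a Dlx1 UMI in control and 61.8% ± 4.80 in cKO libraries (SD, n = 3 each), with 72.3% in the DKO library. For Dlx2 the shares were 64.0% ± 5.01 and 50.5% ± 5.35, with 55.2% in the DKO library, and for Dlx5 they were 34.8% ± 1.77 and 28.1% ± 2.25, with 32.5%. The groups of these 3 genes did not overlap (exact permutation p = 0.1 each, 0.467 after adjustment over 35 shares), but how many of all genes have shares of this kind was not computed. Sp9 was at 71.2% ± 4.80 against 62.4% ± 6.25 with overlap, and Sp8 at 23.8% ± 4.14 against 23.9% ± 2.48. Without thinning, the shares were 93.5% ± 3.42 and 84.4% ± 3.22 for Dlx1 and 88.7% ± 7.35 and 76.4% ± 1.99 for Dlx2, both without overlap, while those of Dlx5 overlapped (66.9% ± 13.3 and 56.7% ± 8.18, exact permutation p = 0.3). With cKO library 1 left out the thinned cKO means were 59.4% for Dlx1, 47.5% for Dlx2 and 27.0% for Dlx5. After the same thinning, oligodendrocytes, the reference class, held a Dlx1 UMI in 1.81% ± 0.649 of control and 0.564% ± 0.497 of cKO cells. They held a Dlx2 UMI in 2.65% ± 0.329 and 1.54% ± 0.275, both again without overlap (exact permutation p = 0.1 each). These shares were thus lower in cKO oligodendrocytes as well, and in quiescent NSCs the Dlx1 shares of 1.36% ± 0.575 and 0.637% ± 0.226 are at this level. Mean Dlx1 levels in control and cKO were 7.7 and 4.93 CPM in endothelial, 5.98 and 9.93 CPM in mural and 13.5 and 4.0 CPM in microglial cells. They were 9.14 and 4.76 CPM in astrocytes and 6.53 and 1.71 CPM in neurons. In oligodendrocyte precursors they were 8.12 and 2.61 CPM, and in ependymal cells 9.32 and 6.92 CPM. The Dlx1 groups overlapped in endothelial, mural and ependymal cells, and cKO lay below control without overlap in the other classes named. Mean Dlx2 levels were 6.56 and 6.33 CPM in endothelial, 8.01 and 8.13 CPM in mural and 9.4 and 4.04 CPM in microglial cells. They were 10.6 and 7.92 CPM in astrocytes and 9.07 and 2.0 CPM in neurons. In oligodendrocyte precursors they were 6.97 and 3.39 CPM, and in ependymal cells 22.6 and 13.4 CPM. Without overlap, Dlx2 was lower in cKO microglial cells, neurons and ependymal cells, and its groups overlapped in the other classes named. Whether free RNA differed between genotypes was not measured.

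Neuroblasts in which none of the 7 genes was found were also counted, a count that was added after the shares had been seen. It uses the same UMIs as the levels and shares, and so is not a separate result. Its p-values were not adjusted, and other sets of genes were not counted in this way. After thinning, 1.24%, 1.66% and 3.99% of postmitotic neuroblasts in control libraries 1, 2 and 3 had no UMI of any of the 7 genes, against 5.0%, 11.9% and 10.9% in cKO libraries 1, 2 and 3 and 3.82% in the DKO library. Every cKO library lay above every control, and the difference of the means was 6.97 percentage points (2.30% ± 1.48 against 9.27% ± 3.73, SD, n = 3 each, exact permutation p = 0.1). With all UMIs of each cell the shares were 1.79%, 0.488% and 1.02% against 3.02%, 5.28% and 6.56%, with 2.04% in the DKO library. At 1000 UMIs the groups overlapped (difference of 8.2 points, exact permutation p = 0.2). Among dividing neuroblasts the thinned shares were 3.94%, 4.32% and 5.46% against 4.88%, 15.0% and 14.3%, where cKO library 1 fell among the controls, and the DKO library was at 6.85%. Without cKO library 1 the difference in postmitotic neuroblasts was 9.1 points.

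**Figure D5:**
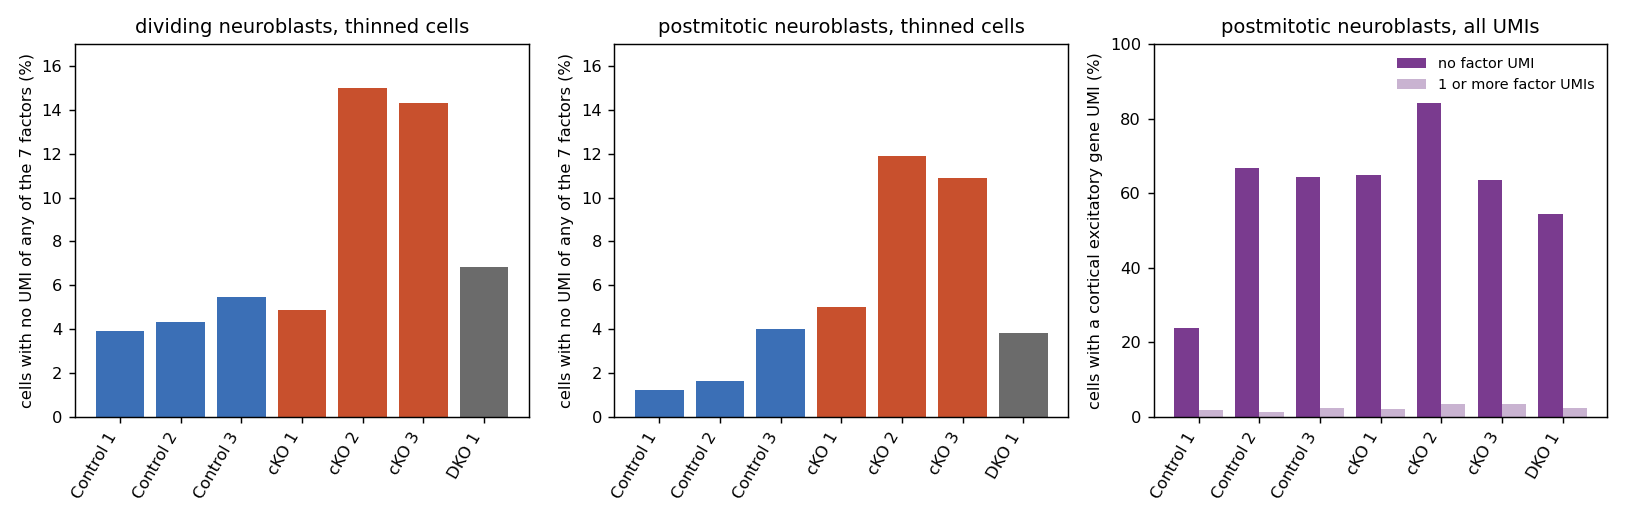
Bars give, for each library, the percentage of dividing (left) and postmitotic (middle) neuroblasts with no UMI of any of the 7 genes after thinning to 2000 UMIs, and (right) the percentage of postmitotic neuroblasts with a UMI of a cortical excitatory gene, in cells without and with any of the 7 genes. In postmitotic neuroblasts the 3 controls sit between 1.24% and 3.99% and the 3 cKO libraries between 5.0% and 11.9%.

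Cells without any of the 7 genes differed from the rest in other genes. With all UMIs used there were 25, 3 and 14 such postmitotic neuroblasts in the controls, 37, 19 and 63 in cKO libraries 1, 2 and 3 and 33 in the DKO library. A UMI of at least 1 of 13 genes of cortical excitatory neurons (such as Eomes, Neurod1, Neurod6 and Bhlhe22) was present in 24.0%, 66.7% and 64.3% of them in the controls, 64.9%, 84.2% and 63.5% in the cKO libraries and 54.5% in the DKO library. Among postmitotic neuroblasts with at least 1 of the 7 genes it was present in 1.31% to 3.57% per library. The 25 cells of control library 1 had a median of 1153 UMIs, against 4561.5 in its other cells, while in cKO libraries 2 and 3 the cells without the 7 genes were deeper than the rest, with medians of 10190 and 6829 against 7266 and 5693. In cKO libraries 1, 2 and 3, Gad2 was at 49.1, 27.5 and 49.0 CPM in cells without the 7 genes and at 354, 355 and 362 CPM in the rest. Neurod1 was at 190, 270 and 88.2 CPM in the cells without and at 0.781, 13.3 and 2.39 CPM in the rest, and Dcx, a marker of young neurons that the gate uses, at 921, 567 and 493 CPM against 974, 1130 and 925 CPM. Such cells were present in control libraries also, with Neurod1 at 355, 636 and 280 CPM and Gad2 at 135, 0.0 and 140 CPM in controls 1, 2 and 3. The other control cells had Neurod1 at 0.464, 0.858 and 0.507 CPM and Gad2 at 392, 375 and 381 CPM. Cells were sorted here by the 7 genes, so these values are a description.

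The 13 cortical excitatory genes were also followed over whole stages. Of the 9 tested in postmitotic neuroblasts, edgeR called 3 higher in cKO libraries: Neurog2 (log2 difference 2.53 ± 0.40, adjusted p = 0.00933), Bhlhe22 (3.58 ± 0.60, adjusted p = 0.0144) and Neurod6 (2.72 ± 0.45, adjusted p = 0.033), while 4 of the 9 had a fitted difference below 0. Over all genes, 0.203% were called there. With cKO library 1 left out these 3 genes passed again, at 2.73, 3.91 and 2.98, and Neurod1 passed as well (2.64 ± 0.48, edgeR adjusted p = 0.018), where 2.01% of all genes were called higher. Of the 5 tested in dividing neuroblasts 1 was called, Neurod1 (6.88 ± 0.95, edgeR adjusted p = 0.0268), which had 0, 0 and 0.121 CPM in the controls and 2.45, 12.6 and 11.9 CPM in the cKO, so that the size of its change depends on the prior count of the fit, and 0.00763% of all genes were called there. In quiescent NSCs edgeR called 0 of the 2 tested, and both had an unadjusted p under 0.05 and a difference below 0, with a median of -1.64. Leaving out cKO library 1, edgeR called both lower, with 5.08% of all genes. In dividing neuroblasts it then called Neurod1 and Neurog2 higher, with 0.721% of all genes. In TAPs it called Neurod1 and Neurog2 higher and Eomes and Fezf2 lower, with 1.55% and 0.572% of all genes. The summed level of the 13 genes in quiescent NSCs was 53.6, 65.8 and 43.65 CPM in the controls and 40.6, 27.1 and 13.9 CPM in the cKO. Their summed level in postmitotic neuroblasts was 25.1, 23.6 and 31.4 CPM in the controls, 49.4, 86.3 and 57.9 CPM in the cKO and 28.8 CPM in the DKO library. With every cell that held such a UMI left out, the fitted cKO differences of Dlx1, Dlx2 and Dlx5 in postmitotic neuroblasts went from -0.27, -0.41 and -0.23 to -0.17, -0.32 and -0.14. The cells left out were 2.23%, 1.63% and 3.07% of control and 4.0%, 7.78% and 7.5% of cKO postmitotic neuroblasts, and finding such a UMI depends on depth. The part of these cells in the cKO differences was not tested. Of the 25 other lineage factors and the 18 GABAergic and migration genes edgeR called 0 in any stage with all libraries. At an unadjusted p under 0.05 there were 4 of 19, 3 of 19, 4 of 19, 3 of 21 and 7 of 21 lineage factors tested in the 5 stages, and 2 of 15, 2 of 15, 2 of 16, 4 of 16 and 3 of 16 GABAergic and migration genes, beside 13.1%, 8.29%, 6.41%, 5.38% and 9.86% of all genes. Without cKO library 1 edgeR called 0, 0, 0, 0 and 2 lineage factors higher and 5, 1, 2, 0 and 4 lower, and 1, 1, 2, 2 and 1 GABAergic and migration genes higher and 0, 0, 1, 0 and 0 lower. Over all genes 7.02%, 2.54%, 1.55%, 0.721% and 2.01% were then called higher and 5.08%, 0.974%, 0.572%, 0.153% and 0.71% lower. Gad1, the other GABA-making enzyme, was at 253, 227 and 192 CPM in control and 155, 170 and 145 CPM in cKO postmitotic neuroblasts (log2 difference -0.46 ± 0.15, edgeR adjusted p = 0.341, and -0.46 with adjusted p = 0.212 without cKO library 1), and Gad2 at 389, 374 and 379 CPM against 345, 335 and 340 CPM. The antisense RNA Dlx6os1 was at 1390, 1070 and 1210 CPM against 1130, 983 and 743 CPM there.

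The DKO library, the only one with floxed Vcam1 as well, allows no test. In postmitotic neuroblasts it lay within the control range for Dlx1 (689 CPM, 95% exact Poisson interval for counting error only 675 to 704), Dlx5 (199 CPM, 191 to 207), Sp9 (679 CPM, 664 to 693) and Sp8 (126 CPM, 120 to 132). Dlx2 at 448 CPM (436 to 459) lay below all 3 controls and within the cKO range. In TAPs Dlx2 (237 CPM) was below all 3 controls, and Dlx1 (338 CPM) hardly differed from the lowest control (340 CPM). Both values lay within the cKO range. Dlx2 in dividing neuroblasts, at 417 CPM, was the lowest of the 7 libraries. Its share of postmitotic neuroblasts with no UMI of the 7 genes was within that of the controls after thinning (3.82%) and above every control with all UMIs (2.04%), and in dividing neuroblasts the thinned share of 6.85% was above every control. Its Gsx2 level of 26.6 CPM (23.1 to 30.5) in quiescent NSCs lay within the control range and within the cKO range. Whether the DKO differs from either group cannot be tested with 1 library.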

How the data were processed

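Droplet-based 3′ single-cell RNA libraries of the lateral V-SVZ were analysed from 3 control, 3 Prdm16 cKO and 1 DKO sample. The deposited values are raw UMI counts per gene and barcode, made by the authors with Cell Ranger on GRCm38 without normalization. The file headers name version 6.0.1 (control and cKO libraries 1 and 2) or 6.1.1 (the others), and the submitters' processing notes name Cell Ranger 6.1.1. The 7 genes and the gene lists were chosen with earlier results of these data known. The rule for named genes covers the 7 genes, at most 4 genes per list, direction and comparison with the smallest adjusted p, plus Gad1, Gad2, Dlx6os1 and Dlx1as, and for each of the 7 the 3 genes with the most similar class profile, and some genes it covers are not reported here.

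Cells were assigned to a stage by mean log-normalized marker scores per 10000 UMIs, with no member among the markers. Raw counts were summed per library and stage (at least 10 cells) and compared with edgeR 4.0.16 (R 4.3.3, expression filter, TMM, robust quasi-likelihood, Benjamini-Hochberg adjustment over all genes, threshold 0.05), with all 7 libraries in 1 fit. The script was tested on simulated data with known changes. Values at 0 UMIs were given the limit of 3 counts. Shares of cells were compared after thinning to 2000 UMIs, leaving out shallower cells (in postmitotic neuroblasts 238 control, 114 cKO and 69 DKO cells), with exact two-sided permutation tests. Doublets marked by Scrublet in scanpy 1.11.5 (0.749% to 4.11% per library) were kept. Alternatives were DESeq2 1.42.0, no filter, a replicate block, each library left out, a limit of 5% mitochondrial counts, doublets left out, stricter gates, stages from Leiden clusters, equal cell numbers and control libraries alone. Leaving out cells with shared barcodes or with excitatory gene UMIs and the Cell Ranger version as a block were added after seeing the data. No cluster was removed from the gated stages. Where stages came from clusters, 1 cluster with 1248 of its 1249 cells from control library 2 passed no gate and stayed unassigned.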

Additional observations from a re-analysis of the deposited data

How the results depend on the processing

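Of 554 refits of the genotype change, 524 kept direction and side of the threshold, 6 newly passed and 24 changed sign. Of 420 refits of the steps, 372 kept both, 11 newly passed, 19 no longer passed and 18 changed sign, all of these in values near 0 or at low counts, except where stages came from clusters. The number of the 7 genes called in the genotype comparison moved from 0 to 3 in activated NSCs without the filter on low counts and to 1 with the replicate block, and leaving out single libraries gave 0 to 1 in quiescent and 0 to 1 in activated NSCs, each 1 being reached without cKO library 1. Without that library the difference of the change between stages was called for 1 gene (activated against quiescent NSCs) and 2 genes (TAPs against activated NSCs). Of all 13636 genes tested, 206 were called higher and 109 lower in the first of these and 33 and 69 in the second. Steps from TAPs to dividing neuroblasts gave 0 calls when stages came from clusters, where the 1 cluster placed as TAPs held 1 and 7 cells of control libraries 1 and 2 and 17 of cKO library 1. The genotype change in TAPs could not be fitted from clusters because controls 1 and 2 had too few cells.

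Signs turned as follows. In quiescent NSCs the genotype change of Dlx1 was 0.17 with equal cells, and that of Dlx6 -0.01 from clusters and -0.26 to 0.46 with single libraries left out. In TAPs it was 0.02 for Dlx5 and 0.14 for Sp8 without cells holding excitatory UMIs, 0.09 for Dlx6 with stricter gates, 0.78 for Sp8 and 0.10 for Sp9 with equal cells, and with single libraries left out -0.31 to 0.23 for Dlx5, -0.36 to 0.36 for Sp8 and -0.44 to 0.07 for Gsx2. In dividing neuroblasts it was 0.03 for Sp8 and 0.02 for Gsx2 with equal cells, 0.10 for Sp8 without excitatory cells, and with single libraries left out -0.23 to 0.04 for Dlx5, -0.24 to 0.10 for Sp8 and -0.34 to 0.09 for Gsx2. In postmitotic neuroblasts Sp8 ran from -0.08 to 0.15 with single libraries left out. The step from quiescent to activated NSCs was -0.85, -0.67 and -0.71 for Dlx6, Sp8 and Sp9 with stricter gates, -1.35, -0.35 and -0.61 without doublets, -0.10 for Dlx6 without excitatory cells, -0.32 for Sp8 from clusters, and with single libraries left out -0.36 to 0.16 for Dlx6 and -0.45 to 0.66 for Sp8. Gsx2 from activated NSCs to TAPs was -0.05 in the controls alone. From clusters, the step into dividing neuroblasts was -0.00 for Dlx1 and -0.03 for Dlx2, and the step into postmitotic neuroblasts 0.24 for Dlx2 and 0.25 for Dlx6, with 0.01 for Dlx2 in the controls alone. Without cKO library 1, the difference of the change between TAPs and dividing neuroblasts was -0.02 for Dlx5 and -0.13 for Sp8. Apart from the clusters and left-out libraries, the cause was not tested.

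Whether replicate numbers pair the libraries is not settled: deviations from group means correlated at 0.19 to 0.42 for numbers 1 and 3, but at -0.06 to 0.03 for number 2. Control and cKO libraries 3 also shared Cell Ranger version 6.1.1. With the replicate block, Gsx2 in activated NSCs was -1.04 (edgeR adjusted p = 0.0236). Calls over all genes depended more on the setting. In quiescent NSCs, 3 genes were called higher and 0 lower with all libraries, 980 and 709 without cKO library 1, 420 and 62 with DESeq2, 470 and 122 with the replicate block and 478 and 152 without the filter. In activated NSCs the counts were 8 and 0, 311 and 119, 107 and 5, 186 and 32, and 270 and 81, and in postmitotic neuroblasts 28 and 0, 277 and 98, 114 and 9, 282 and 88, and 268 and 91. Of the shares of cells, 32 of 70 alternatives moved beyond 1 SD, as depth sets them, and the share of postmitotic neuroblasts without the 7 genes kept its direction in 8 of 8. Depth limits Sp8, Dlx5, Dlx6 and Sp9 in NSCs, where levels are at or near those of oligodendrocytes.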
